A study of Homo sapiens with 6 samples.

Results

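The N-myc downstream regulated genes NDRG1, NDRG2, NDRG3 and NDRG4 were followed in A2780 cells, a human ovarian cancer cell line. Members were chosen by name: the 4 rows of the deposited count tables that carry these symbols were taken, out of 44591 genes listed, and all 4 passed the filter on low counts that left 16222 genes to be tested. RNA samples came from untreated cells (3 replicates) and from cells kept for 48 h with recombinant human CRMP2, called r-CRMP2, at 40 ng/ml (3 replicates). The labels call the genotype of both groups WT, and all cells were grown in DMEM with serum. CRMP2 is a microtubule-associated protein that the study examined as a factor released by fibroblasts of the tumor. Polyadenylated RNA was sequenced, and the question here is how the transcripts of this family stood in cells with and without the added protein. The sources do not say whether the replicates of a group were cultures kept apart, so a p-value measures the spread between these libraries, which may be partly technical.

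The NDRG proteins share an α/β-hydrolase-like fold but lack the residues that make such a fold an enzyme. NDRG1, whose mouse counterpart was found as a gene repressed by N-myc, is induced by hypoxia, by metal ions and by other stresses, and it has been described as a suppressor of metastasis. NDRG3 protein is marked for degradation by an oxygen-dependent prolyl hydroxylase and is stabilised when lactate binds it. NDRG2 is best known from astrocytes and as a candidate tumor suppressor, and NDRG4 from brain and heart.

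Between 21888530 and 25711353 counts were available per library. The r-CRMP2 replicate 3 library stood apart at the low end, with 4858 genes at 1 to 4 counts against 7366 to 7634 in the other libraries, so values of the weakly expressed members are also given without it. Keratin transcripts KRT8 and KRT18 were abundant in every library, while CDH1, the gene of E-cadherin, had 0 to 5 counts, so this epithelial marker was absent or nearly so. The summed level of 8 epithelial markers was 4202 to 4412 TPM (a level corrected for gene length and set to the same sum in every library) in untreated and 3438 to 3769 TPM in r-CRMP2 libraries. That of 10 fibroblast markers was 244.7 to 286 TPM and 169 to 182 TPM, and none of the 10 was at 0 in all libraries. The epithelial sum was nearly all KRT7, KRT8 and KRT18. EPCAM lay at only 5.44 to 7.39 TPM, and KRT19, PAX8 and MUC16 lay between 1.17 and 3.10 TPM. COL1A1 made up most of the fibroblast sum, at 160 to 191 TPM in untreated and 94.2 to 109 TPM in r-CRMP2 libraries. With the scaling used for the tests (TMM), KRT8 and COL1A1 had log2 fold changes of 0.03 and -0.41. With library size alone these were -0.28 and -0.72. The part of the shifts of both sums in the results was not tested. Of the 7 epithelial markers tested, KRT18 was higher (log2 fold change 0.20) and KRT7 and MUC16 lower (-0.21 and -0.36), beside 28.2% higher and 30.1% lower among all genes tested (edgeR, adjusted p under 0.05). These counts of 1 and 2 became 0 and 4 with library size alone and 0 and 0 without untreated replicate 3, none was higher without r-CRMP2 replicate 3, and 1 was lower without untreated replicate 2 or r-CRMP2 replicate 2. Of the 9 fibroblast markers tested 3 were higher, among them LUM and PDGFRA at 0.53 and 0.46, and 3 lower, among them POSTN and PDGFRB at -0.59 and -0.41, and with library size alone none was higher and 4 were lower.

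The RefSeq promoter table (GRCh38.p14) matched 2 of the 4 members, with 5 windows for NDRG2 and 4 for NDRG4, each holding 250 bases before and 50 bases after a transcript start. For each of these genes the window richest in the core letters bound by hypoxia-inducible factors is shown. These letters were chosen because NDRG1 is a known target of these factors. NDRG1 and NDRG3 had no window, so the 2 genes shown cannot be compared with them. Where windows tied, the one with the lowest coordinate was taken. The windows are chr14:21025012-21025311, minus strand, and chr16:58463465-58463764, plus strand, and capitals mark ACGTG or GCGTG read on either strand.
NDRG2: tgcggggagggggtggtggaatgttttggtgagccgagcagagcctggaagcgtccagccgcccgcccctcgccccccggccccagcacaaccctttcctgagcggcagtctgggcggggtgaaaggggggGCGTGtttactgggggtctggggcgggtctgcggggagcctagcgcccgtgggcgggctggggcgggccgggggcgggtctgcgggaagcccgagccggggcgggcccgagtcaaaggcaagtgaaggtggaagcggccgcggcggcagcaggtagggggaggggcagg
NDRG4: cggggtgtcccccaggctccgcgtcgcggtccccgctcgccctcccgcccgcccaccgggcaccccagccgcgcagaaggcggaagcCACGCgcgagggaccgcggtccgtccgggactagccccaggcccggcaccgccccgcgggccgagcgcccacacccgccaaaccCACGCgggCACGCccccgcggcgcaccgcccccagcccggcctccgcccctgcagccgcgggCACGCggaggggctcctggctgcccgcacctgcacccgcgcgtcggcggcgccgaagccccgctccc
The NDRG2 window held 1 match and the NDRG4 window 4 matches, all of GCGTG. The mean over all windows was 0.901 matches. G and C made up 74.3% of the NDRG2 window and 83% of the NDRG4 window, against a median of 58.7% over all windows. Of the 5 NDRG2 windows 3 held a match, and of the 4 NDRG4 windows 1 did, with some NDRG2 windows overlapping each other. The share of all 35116 windows of this length with a match to ACGTG or GCGTG was 48.4%. CACGTG, the E-box read by MYC and MYCN, which contains ACGTG, was in none of the 9 windows and in 7.26% of all windows. A match is a run of letters and was not tested as a binding site.

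NDRG1 was by far the most abundant member and rose 4.31-fold with r-CRMP2. NDRG2, expressed at a very low level, fell by 1.01 on the log2 scale, whereas NDRG3 and NDRG4 did not pass the test. The order of levels was NDRG1, then NDRG3, then NDRG2 and NDRG4. NDRG1 stood at 1423, 1261 and 1056 TPM in untreated replicates 1, 2 and 3, and at 4131, 4180.1 and 4542 TPM in r-CRMP2 replicates 1, 2 and 3. NDRG3 lay between 51.5 and 56.8 TPM in untreated libraries and between 43.4 and 46.3 TPM in r-CRMP2 libraries. Every NDRG1 level was thus above every NDRG3 level. NDRG2 ranged from 1.22 to 2.13 TPM and NDRG4 from 1.04 to 1.42 TPM in untreated libraries, so these neighbours in the order overlapped. With r-CRMP2 they overlapped again, NDRG2 at 0.665 to 0.71 TPM and NDRG4 at 0.347 to 0.901 TPM. NDRG1 made up 95.6 ± 0.842% (SD, n = 3) of the summed TPM of the family in untreated cells and 98.9 ± 0.0617% (SD, n = 3) with r-CRMP2.

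**Figure D1:**
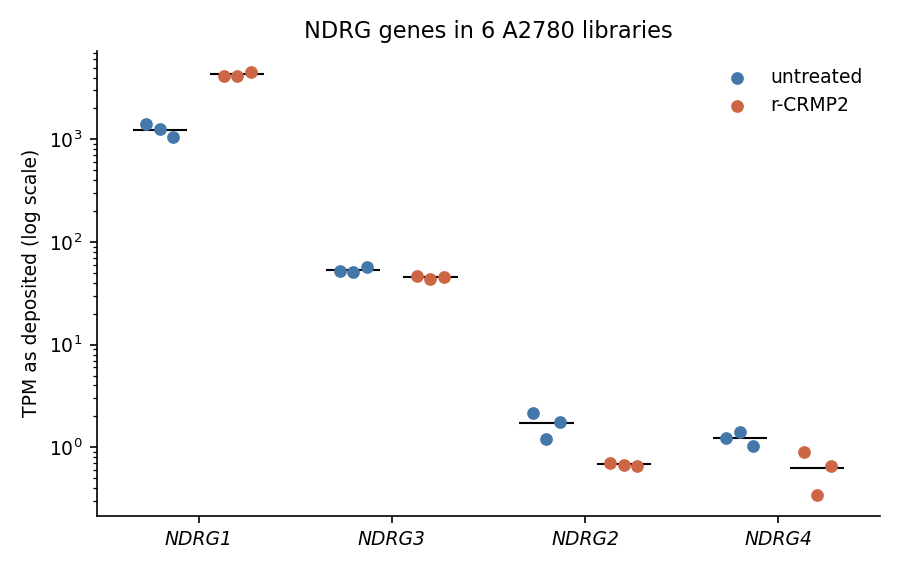
Deposited TPM of the 4 NDRG genes (log axis) in the 3 untreated (blue) and 3 r-CRMP2 libraries (orange), with a bar at each group mean. NDRG1 sits at 1056 to 1423 TPM without and 4131 to 4542 TPM with r-CRMP2, NDRG3 near 50 TPM in both groups, and NDRG2 and NDRG4 between 0.347 and 2.13 TPM.

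Untreated replicates 1, 2 and 3 held 57448, 43623 and 41089 NDRG1 counts, and r-CRMP2 replicates 1, 2 and 3 held 151606, 155701 and 184860. Scaled to CPM (counts set relative to the TMM-normalised library size), these were 2063, 1775 and 1500.0 CPM without and 7087, 7861 and 8039 CPM with r-CRMP2. The lowest treated library was more than 3-fold above the highest untreated library, and the spread within each group was small beside the gap. The untreated mean was 1779 ± 281 CPM and the r-CRMP2 mean 7662 ± 506 CPM (± SD, n = 3 per group). The log2 fold change was 2.11 (SE 0.14, edgeR adjusted p = 1.37e-12, where SE is the standard error and the test is the quasi-likelihood test), a 4.31-fold rise. With a threshold of 0.05 on the adjusted p, 28.2% of all genes tested were higher and 30.1% lower, and 5.12% were upregulated and 8.86% downregulated when a log2 fold change beyond 1 was also required. A call at the adjusted p-value alone was therefore common, and NDRG1 belonged to the smaller set past both thresholds.

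By log2 fold change NDRG1 ranked 157 of 16222 genes, and 58 of 12705 genes with a mean normalised count of at least 50 rose by more. Few of those were comparably abundant. NDRG1 took 0.168% to 0.226% of all counts in untreated libraries and 0.653% to 0.719% in r-CRMP2 libraries, where it was the 5th or 6th most counted gene. Without r-CRMP2 it ranked 27, 32 and 37 by count. Only 10 genes had a higher mean CPM, and their log2 fold changes lay between -0.66 and 1.36. In TPM gained, which takes gene length into account, NDRG1 ranked 6 among all genes listed, and in CPM gained it ranked 2 among all genes tested. Counting error on so many reads was below 0.5% of the value, so the spread of 15.8% between untreated libraries was not set by depth. Leaving out each library in turn gave log2 fold changes from 1.998 to 2.23.

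**Figure D2:**
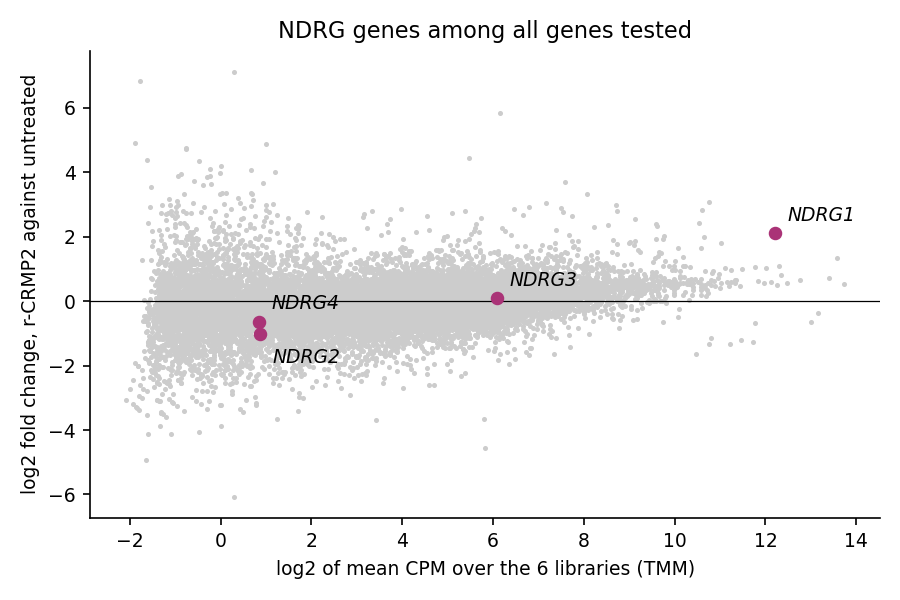
Log2 fold change (r-CRMP2 against untreated) against the log2 of the mean CPM for the 16222 genes tested (grey), with the 4 NDRG genes in color. NDRG1 lies toward the right end at 2.11, NDRG3 near 0 and NDRG2 and NDRG4 below 0 among genes of low expression.

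A ratio of counts within 1 library does not depend on how libraries are scaled to each other. The log2 ratio of NDRG1 to NDRG3 counts was 4.98, 4.82 and 4.42 in untreated replicates 1, 2 and 3 and 6.68, 6.79 and 6.83 in r-CRMP2 replicates 1, 2 and 3. The groups did not overlap, and the difference of the means was 2.03 (exact permutation test, two-sided, p = 0.1), a 4.08-fold shift. The ratio of NDRG1 to the summed counts of the other members moved by 2.07 (exact permutation test, two-sided, p = 0.1). NDRG3 made up most of that sum, so this ratio largely repeats the first. With 3 libraries against 3, 0.1 is the smallest p this test can give. NDRG1 thus rose relative to NDRG3 by about as much as it rose relative to all genes.

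NDRG3, the member controlled through oxygen and lactate at the protein level, showed no call. Its counts were 1817, 1548 and 1921 without and 1476, 1404 and 1626 with r-CRMP2. After TMM normalization these were 65.2, 63.0 and 70.1 CPM in untreated and 69.0, 70.9 and 70.7 CPM in r-CRMP2 libraries. The 2 sets overlapped. The log2 fold change was 0.09 (SE 0.05, edgeR adjusted p = 0.272), with a 95% interval from -0.05 to 0.22. When libraries were scaled by their size alone, the direction turned and NDRG3 was lower at -0.22 (adjusted p = 0.00664, edgeR). The median of all genes tested moved from -0.03 to -0.34 under that scaling, so NDRG3 stayed above the median of all genes. On the deposited TPM scale all 3 r-CRMP2 libraries were below all 3 untreated libraries, at 45.2 ± 1.6 against 53.4 ± 2.99 TPM (± SD, n = 3 per group). The direction of NDRG3 thus rests on the scaling.

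NDRG2 had 86, 42 and 69 counts in untreated and 26, 25 and 27 counts in r-CRMP2 libraries. The exact Poisson 95% interval of the lowest untreated count was 30.3 to 56.8 and that of the highest treated count 17.8 to 39.3, which overlap, and such intervals cover counting error only. In CPM the values were 3.09, 1.71 and 2.52 without and 1.22, 1.26 and 1.17 with r-CRMP2. All treated libraries were below all untreated libraries, as they were for 33.3% of all genes tested. NDRG2 fell from 2.44 ± 0.693 to 1.22 ± 0.0441 CPM (± SD, n = 3 per group), a log2 fold change of -1.01 (SE 0.24, edgeR adjusted p = 0.00311). This was just past the fold threshold of 1. The log2 fold change was -0.99 with DESeq2 and with RLE size factors, and -0.98 (adjusted p = 0.0134, edgeR) without r-CRMP2 replicate 3, all 3 short of it. It was also short of it with the replicate number as a block (-0.99) and without untreated replicate 1, untreated replicate 3 or r-CRMP2 replicate 1, although NDRG2 remained lower at the adjusted p in each of these fits.

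The spread of NDRG2 in untreated libraries, 28.4% of the mean, was above the 12.3% that counting alone would give, while in treated libraries it was 3.62% against 19.6%. Untreated replicate 1 was the highest, and without it the log2 fold change was -0.80 (adjusted p = 0.029, edgeR). The span of NDRG2 takes in several other genes, among them TPPP2, RNASE7, RNASE8 and RNASE13, which had 0 to 3 counts in any library, and the microRNA gene MIR6717, with 0 or 1. A non-coding gene listed as ENSG00000258604.1 had 0 counts in all 6 libraries. ARHGEF40, a guanine nucleotide exchange factor gene on the opposite strand, overlaps the outer end of NDRG2 by 613 bases. It fell from 41.3 ± 2.86 to 28.4 ± 2.04 CPM (± SD, n = 3 per group), a log2 fold change of -0.54 (SE 0.08, edgeR adjusted p = 1.25e-05). TPPP2 and NDRG2 share sequence as well. Whether reads were counted by strand is not given in the sources used here, so reads from that overlap cannot be told apart and the level of NDRG2 is uncertain to that extent.

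NDRG4 was as weakly expressed as NDRG2, with 62, 61 and 50 counts in untreated and 41, 16 and 33 counts in r-CRMP2 libraries. In CPM these were 2.23, 2.48 and 1.83 without and 1.92, 0.808 and 1.44 with r-CRMP2. The groups overlapped through r-CRMP2 replicate 1, and replicate 2 was the lowest of all. The log2 fold change of -0.64 (SE 0.36, edgeR adjusted p = 0.0611) missed the threshold, with an interval for this gene alone from -1.23 to -0.04. The call depended on the setting: NDRG4 was lower with library size alone at -0.94 (adjusted p = 0.00858, edgeR) and without r-CRMP2 replicate 1 at -0.92 (adjusted p = 0.017, edgeR). Without r-CRMP2 replicate 2 it was -0.37 (adjusted p = 0.257, edgeR), and without r-CRMP2 replicate 3 it was -0.65 (adjusted p = 0.109, edgeR). At this depth a change of NDRG4 was not settled in either way.

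**Figure D3:**
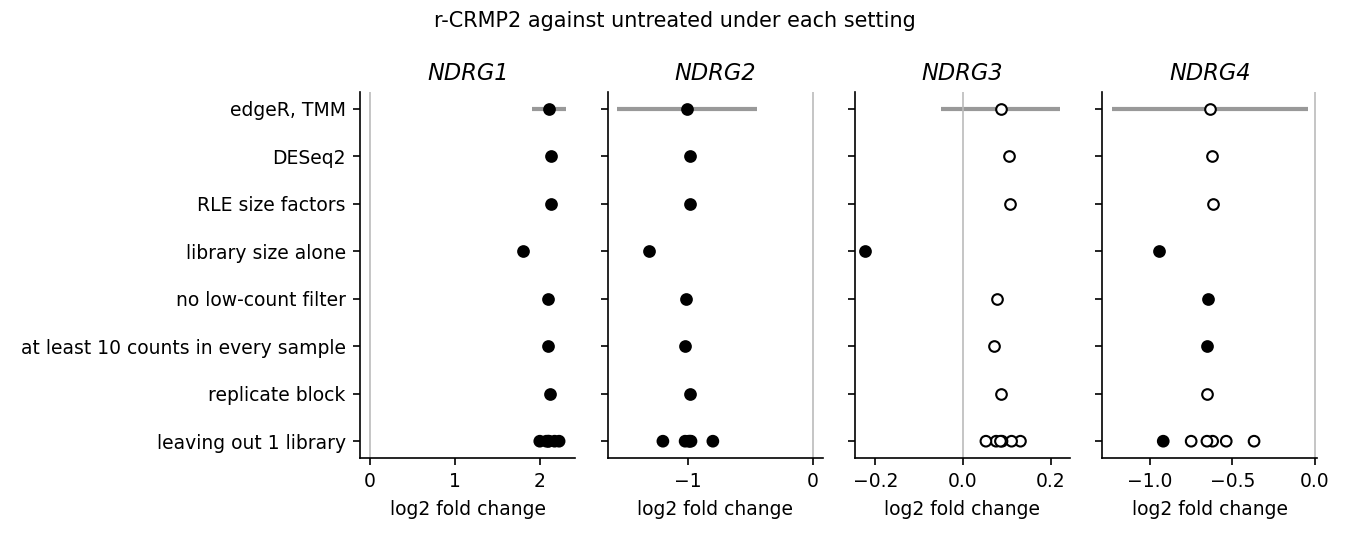
Log2 fold change of each NDRG gene under the settings named at the left (rows), filled where the adjusted p was below 0.05 and open otherwise, with the 95% interval of the edgeR fit as a grey bar, and 6 points in the bottom row for fits without 1 library each. The horizontal scales differ between panels. NDRG1 stays between 1.80 and 2.23, and library size alone takes NDRG3 to -0.22.

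In the coordinates of the deposited files, for which the submitters' processing notes name the build hg19, NDRG1 lies on chromosome 8 from 134249414 to 134309547 on the minus strand. NDRG2 lies on chromosome 14 from 21484922 to 21539031 on the minus strand, NDRG3 on chromosome 20 from 35280169 to 35374541 on the minus strand and NDRG4 on chromosome 16 from 58497549 to 58547523 on the plus strand. Each is listed as protein coding, and each value above covers all transcripts of the gene together.

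Reads of 1 member could in principle be counted for another. Among 31-base words of the GENCODE release 29 transcripts, on either strand, no member shared a word with another member. NDRG1 shared none with any gene, out of 10154 words. The share of words found in other genes was 5.13% for NDRG2, TPPP2 among them, 4.61% for NDRG3 and 0.209% for NDRG4. The members are thus distinct at the length of a sequenced read, and the abundance of NDRG1 does not enter the other 3 values through identical sequence of this length.

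NDRG1 protein is phosphorylated by SGK1, a serum- and glucocorticoid-induced kinase, and then by GSK3, and SGK1 itself is switched on by mTORC2 and by the kinase encoded by PDPK1. Of 16 genes of these kinases and complexes, all tested, 3 were higher and 6 lower, beside 28.2% and 30.1% of all genes tested. The median log2 fold change was -0.13 against -0.03 for all genes tested. SGK1 stood at 851, 803 and 871 CPM in untreated and 840.3, 892 and 827 CPM in r-CRMP2 libraries. The kinase gene was thus abundant and its groups overlapped. Its log2 fold change was 0.02 (SE 0.05, edgeR adjusted p = 0.815; 95% interval -0.11 to 0.15), and with library size alone it was -0.29 (adjusted p = 0.000122, edgeR). GSK3B fell slightly, by 0.24 on the log2 scale (adjusted p = 0.00563, edgeR).

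PDPK1 fell by 0.77 on the log2 scale (adjusted p = 1.02e-06, edgeR), from 45.7 ± 4.49 to 26.9 ± 3.42 CPM (± SD, n = 3 per group), and its value is uncertain because a near-identical copy of this gene may share its reads. PRR5L, an mTORC2-associated protein gene, and SGK3, a kinase related to SGK1, fell by 0.88 and 0.89 (adjusted p = 3.05e-07 and 0.00185, edgeR). RICTOR, the defining subunit of mTORC2, rose by 0.61 (adjusted p = 3.4e-05, edgeR), from 90.4 ± 9.05 to 138 ± 25 CPM (± SD, n = 3 per group). With library size alone RICTOR rose by 0.31. MTOR and MAPKAP1, also genes of mTORC2 subunits, fell by 0.56 and 0.26 (adjusted p = 3.03e-06 and 0.00331, edgeR). MLST8, another such gene, was at -0.03 (adjusted p = 0.694, edgeR). None of the 16 genes passed the fold threshold with TMM. With library size alone 1 was higher and 12 were lower, and PRR5L, SGK3 and PDPK1 passed it at -1.19, -1.19 and -1.07, so the balance of this group rests on the scaling.

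Of 14 transcription factor genes known to act on NDRG genes, 13 were tested, and 6 were higher and 5 lower. Among all genes tested 28.2% were higher and 30.1% lower. The median log2 fold change of the list was 0.18. MYCN, the factor that gave the family its name, had 0 to 3 counts in any library and was not tested. MYC, its close relative and also a repressor of NDRG1, rose from 502 ± 6.83 to 813 ± 45.1 CPM (± SD, n = 3 per group). Its log2 fold change was 0.69 (SE 0.05, edgeR adjusted p = 1.83e-08), in the same direction as NDRG1. ZBTB17, the gene of the MYC partner MIZ1, rose by 0.59 (adjusted p = 3.99e-06, edgeR).

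EPAS1, which encodes the hypoxia-inducible subunit HIF-2α, rose from 156 ± 15.4 to 330.3 ± 13 CPM (± SD, n = 3 per group). The log2 fold change of EPAS1 was 1.08 (SE 0.09, edgeR adjusted p = 2.68e-10), and it was the only factor of the list that was upregulated past both thresholds. With library size alone it was 0.77. HIF1A, the gene of HIF-1α, rose by 0.49 (adjusted p = 2.13e-06, edgeR). EGR1, an immediate-early factor reported to activate NDRG1, moved the other way, at -4.55 (adjusted p = 3.43e-11, edgeR). With library size alone 5 of the 13 were higher and 6 lower, and 3 were lower without untreated replicate 1, r-CRMP2 replicate 2 or r-CRMP2 replicate 3.

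For NDRG3, 13 genes of the hydroxylases, the VHL ligase and lactate handling were listed. All were tested, and 7 were higher and 3 lower, beside 28.2% and 30.1% of all genes tested. The median log2 fold change of the list was 0.17. EGLN1, the gene of the hydroxylase PHD2 that acts on NDRG3 protein, stood at 132, 126 and 125 CPM without and 194, 202 and 208 CPM with r-CRMP2. EGLN1 was higher in every treated library, with a log2 fold change of 0.65 (SE 0.04, edgeR adjusted p = 2.93e-08). EGLN3, a related hydroxylase gene, rose by 1.24 (adjusted p = 1.91e-11, edgeR) and was the only gene of the list past both thresholds, which it no longer was with library size alone (0.93). VHL, which encodes the substrate receptor of the ligase, fell by 0.26 (adjusted p = 0.000949, edgeR).

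On the side of lactate, LDHA, the lactate dehydrogenase subunit that favors lactate formation, rose by 0.60 (adjusted p = 1.06e-06, edgeR). SLC16A1, a lactate transporter gene, rose by 0.71 (adjusted p = 1.23e-08, edgeR), from 193 ± 2.51 to 316 ± 17.8 CPM (± SD, n = 3 per group). The NDRG3 transcript itself was not called beside these, and NDRG3 protein was not measured in these libraries. With library size alone 4 of the 13 genes were higher and 7 lower.

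NDRG1 belongs to a widely used hypoxia signature of tumors. Of the 14 other genes of that signature, 10 were higher and 3 lower, with a median log2 fold change of 0.58, and 5 were upregulated past both thresholds. Among all genes tested 28.2% were higher, 30.1% lower and 5.12% upregulated past both thresholds. The rise of NDRG1 was passed by ADM, a vasodilator peptide gene (3.70, adjusted p = 5.59e-14, edgeR), and by VEGFA, the angiogenic growth factor gene (2.35, adjusted p = 9.92e-14, edgeR). SLC2A1, the glucose transporter gene, was close to it at 2.02 (adjusted p = 1.36e-12, edgeR), and P4HA1, a collagen prolyl hydroxylase gene, followed at 1.21 (adjusted p = 2.47e-11, edgeR). The genes that fell were MRPS17, TUBB6 and ACOT7, at -0.45, -0.32 and -0.29. With library size alone, 10 were higher and 4 lower, and 3 were upregulated past both thresholds, ADM, VEGFA and SLC2A1. This signature was chosen with earlier results of these libraries known and is not independent evidence of its direction.

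Because the family is called stress responsive, 12 genes of the integrated stress response and of stress of the endoplasmic reticulum were also read. Of these, 6 were higher and 2 lower, beside 28.2% and 30.1% of all genes tested, with a median log2 fold change of 0.21. PPP1R15A, the gene of the phosphatase subunit GADD34, stood at 20.2, 26.6 and 29.6 CPM without and 101, 140.5 and 124 CPM with r-CRMP2, a log2 fold change of 2.26 (SE 0.22, edgeR adjusted p = 1.34e-11). DDIT4, an inhibitor of mTORC1, was at 1.82 (adjusted p = 4.29e-12, edgeR), and HSPA5, the chaperone BiP of the endoplasmic reticulum, at 0.92 (adjusted p = 1.7e-08, edgeR). DDIT3, the gene of CHOP, rose by 0.58 (adjusted p = 0.00253, edgeR), a call that was lost with library size alone (adjusted p = 0.143, edgeR). ATF4, the central factor of the integrated stress response, was at 0.07 (adjusted p = 0.379, edgeR). CHAC1, one of its targets, fell by 1.32 (adjusted p = 0.00197, edgeR), but it was weakly expressed, with 14 to 78 counts per library. TRIB3 was lower as well, at -0.30 (adjusted p = 0.00103, edgeR). ASNS and SESN2 were not called, at -0.22 and -0.08 (adjusted p = 0.0752 and 0.412, edgeR). The list did not move as one, and with library size alone 3 were higher and 6 lower.

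Of 11 genes described as metastasis suppressors, like NDRG1, 9 were tested, 3 were higher and 2 lower, and none passed the fold threshold. Among all genes tested 28.2% were higher and 30.1% lower, and 5.12% and 8.86% also passed the fold threshold. BRMS1 and MAP2K4, a chromatin-associated factor gene and a kinase gene, fell by 0.50 and 0.25 (adjusted p = 0.000136 and 0.0162, edgeR). TIMP3, a metalloprotease inhibitor gene, rose by 0.40 (adjusted p = 0.000103, edgeR) and the tetraspanin gene CD82 by 0.39 (adjusted p = 0.0198, edgeR). Both rises were lost with library size alone (adjusted p = 0.275 and 0.609, edgeR). The median of this list was 0.11, and with library size alone none was higher and 4 were lower. Without untreated replicate 2, 1 was higher and 1 lower, and without r-CRMP2 replicate 2, 1 was lower. NDRG1 thus stood well outside the range of these genes, which ran from -0.50 to 0.40.

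**Figure D4:**
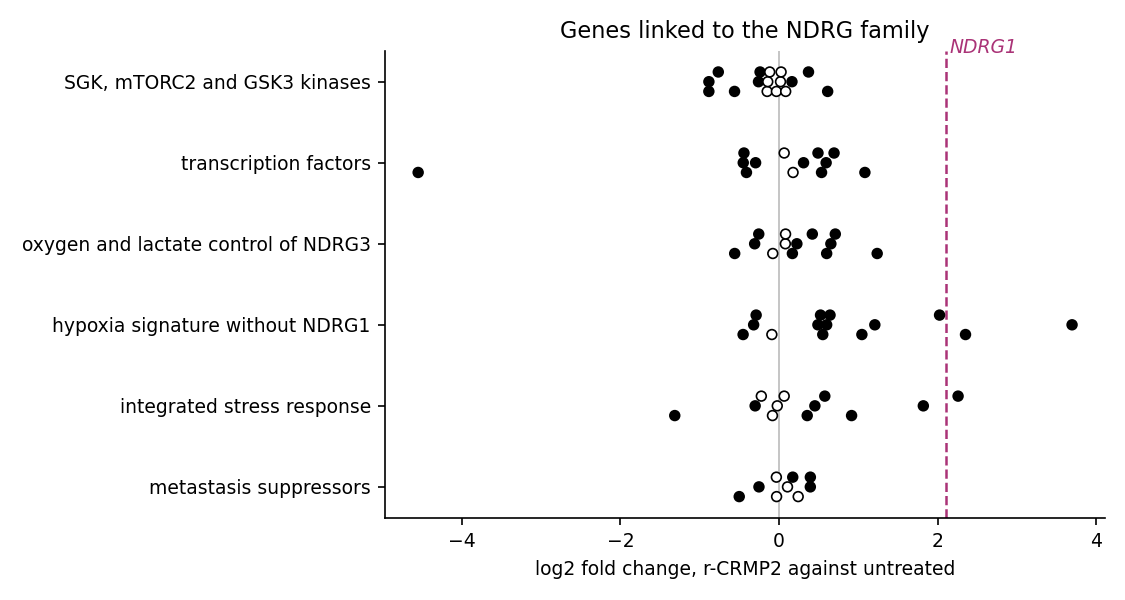
Log2 fold change (r-CRMP2 against untreated) of every tested gene in 6 lists linked to the NDRG family, filled where the adjusted p was below 0.05 and open otherwise, with NDRG1 as a dashed line at 2.11. Only ADM, VEGFA and PPP1R15A lie to the right of the line.

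The genes whose pattern over the 6 libraries was most like that of each member were found by the root mean square difference of log2 CPM after each gene was centred on its mean, among genes with a mean normalised count of at least 50. For NDRG1 these were SLC2A1, MAFK, a small MAF transcription factor gene, and IGFBP3, an insulin-like growth factor binding protein gene, with differences of 0.07 each. SLC2A1 was at 384, 339 and 299 CPM in untreated and 1215, 1449 and 1495 CPM in r-CRMP2 libraries. Untreated replicate 3 was the lowest of its group for NDRG1 and for all 3 of these genes, and r-CRMP2 replicate 1 the lowest of the treated group. MAFK went from a mean of 79.1 to 329 CPM and IGFBP3 from 643 to 2579 CPM.

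For NDRG3 the nearest were CDV3, MARK2 and DDX1, at differences of 0.02, 0.02 and 0.03, none of which passed the test (adjusted p = 0.166, 0.222 and 0.291, edgeR). For NDRG2 they were ABALON, AASDH and a gene listed as ENSG00000273301.1, at 0.13, 0.14 and 0.15. For NDRG4 they were CCDC157, ZDHHC13 and ZNF383, at 0.12, 0.13 and 0.15. The weakly expressed members thus had looser matches than NDRG1 and NDRG3. The points share libraries and their 2 groups, so a small difference mainly says that the groups differ by a similar amount.

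**Figure D5:**
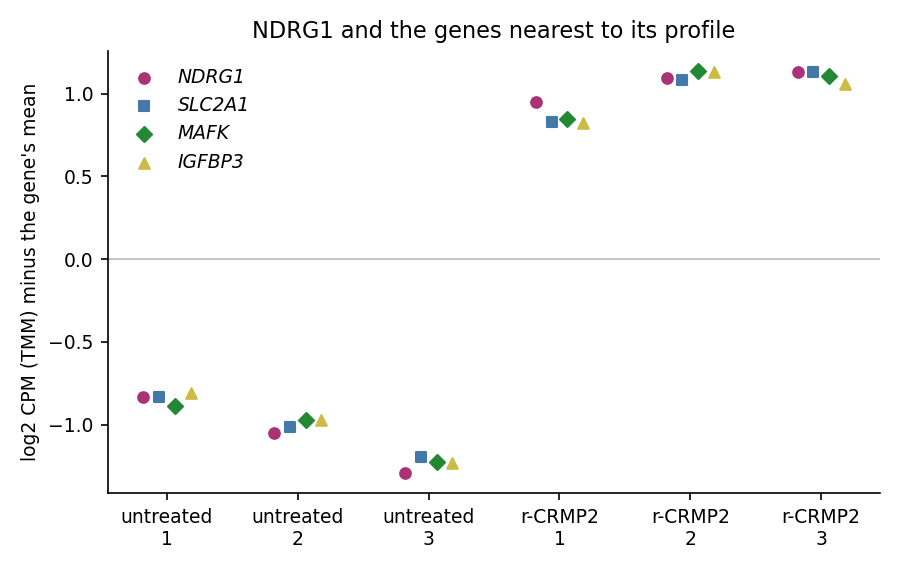
Log2 CPM minus the gene's own mean over the 6 libraries for NDRG1 and the 3 genes nearest to it, SLC2A1, MAFK and IGFBP3. In each library the 4 points lie close together, below 0 in untreated and above 0 in r-CRMP2 libraries.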

How the data were processed

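Polyadenylated RNA of 6 A2780 samples was sequenced, 3 untreated and 3 with r-CRMP2, with paired-end reads. For each library the authors deposited raw read counts per gene, not normalised, and TPM values derived from these counts and the gene lengths. The submitters' processing notes name HISAT2, FastQC, DESeq2 and the build hg19. Versions, counting tool, annotation and use of strand are not given in the sources used here. TPM recomputed from counts and lengths lay within 4.72e-06 of the deposited TPM. The TPM served for levels between genes, and the counts for tests.

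Groups were compared with edgeR 4.0.16 (limma 3.58.1, R 4.3.3), quasi-likelihood test, TMM normalization (factors 1.10 to 1.12 in untreated and 0.879 to 0.922 in r-CRMP2 libraries), filterByExpr and Benjamini-Hochberg adjustment over all genes tested. A gene was called higher or lower at an adjusted p under 0.05, and upregulated or downregulated when the log2 fold change also lay beyond 1, as in the study. Standard errors come from the spread of log2 CPM (prior count 2), and 95% intervals from the quasi-likelihood fit, unadjusted. Ratios had 0.5 counts added. Other settings were scaling by library size alone or by RLE size factors, DESeq2 1.42.0, dropping the low-count filter, requiring 10 counts or more in each library, testing against a fold of 2, the replicate number as a block, and leaving out each library. Same-numbered libraries did not deviate together (correlations across genes -0.02, 0.0038 and -0.03). Whether they shared a culture day or batch is not settled by this. On simulated counts for this comparison, with 15952 genes tested, edgeR recovered 91 of 100 genes changed by 0.5 and 100 of 100 changed by 1 on the log2 scale, with 13 false calls. The changed genes were drawn from genes more abundant than NDRG2 and NDRG4, so the recovery does not cover these members. Few genes were changed beside the 58.2% called in the data, as many up as down, so the scaling was not tested.

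The members and gene lists were chosen with earlier results of these data known. Named were the members, up to 4 genes per list with the largest change among those past the adjusted p with a mean normalised count of at least 50, SGK1, GSK3B, HIF1A, MYC, MYCN, EGLN1 and VHL, genes overlapping a member, and 3 genes nearest in profile to each member. One further gene that the rule names is not reported here. ATF4, CHAC1, COL1A1, KRT8, MRPS17, TUBB6, ACOT7, EPCAM, KRT19, PAX8, MTOR, MAPKAP1, MLST8, TRIB3, ASNS and SESN2 were added after their values were seen. Replicates of a group differed by more than sampling noise (chi-square per degree of freedom 3.86 to 11.3), and none was counted as a duplicate.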

Additional observations from a re-analysis of the deposited data

How the results depend on the processing

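NDRG1 kept its direction and its call under all 13 alternatives, between 1.80 with library size alone and 2.23, and from 1.998 to 2.23 with 1 library left out. NDRG2 kept its call except when tested against a fold of 2 (-1.01, adjusted p = 1, edgeR), and ranged from -1.20 to -0.80 with 1 library left out. NDRG3 reversed with library size alone (-0.22) and otherwise stayed uncalled, from 0.05 to 0.13 with 1 library left out. NDRG4, uncalled at -0.64, was called with library size alone (-0.94), without a low-count filter (-0.65) and with at least 10 counts in every sample (-0.65), and ranged from -0.92 to -0.37 with 1 library left out, called only without r-CRMP2 replicate 1. The causes were not tested. Both ratios within a library kept their direction, from 1.87 to 2.15 and from 1.92 to 2.19 with 1 library left out.

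Over all genes, 4574 were higher and 4875 lower. These became 2173 and 8439 with library size alone and 369 and 467 when tested against a fold of 2. Past both thresholds, 831 were upregulated and 1437 downregulated, against 489 and 2548 with library size alone, 369 and 467 when tested against a fold of 2, and 946 downregulated with at least 10 counts in every sample. With the replicate block, NDRG1 to NDRG4 had log2 fold changes of 2.12, -0.99, 0.09 and -0.66, and each member stayed on its side of the adjusted p threshold, while NDRG2 was no longer past the fold threshold. Sign flips within pairs gave p = 0.25 for the ratio of NDRG1 to NDRG3 (exact test), the smallest that 3 pairs allow. Counts of 16 to 86 limit what can be said of NDRG2 and NDRG4.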
